A study of Rattus norvegicus with 6 samples.

Results

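Levels of 5 xenobiotic response genes, the cytochromes P450 Cyp2b1, Cyp2b2, Cyp2b21 and Cyp2c6v1 and the efflux pump gene Abcb1b, were followed in rat renal cortex after phenolphthalein. These 5 genes, of 12269 named genes that passed the filter on dim probes, were picked by name with their difference between these same arrays already known. Their levels are therefore given as a description with no test. They are genes that phenobarbital raises in rat liver or, for Abcb1b, a gene of drug efflux, and all 13 probes that carry their RefSeq accessions were read. In the phenolphthalein group, 3 male Sprague-Dawley rats had been given 1000 mg/kg/day for 4 weeks. In the vehicle group, 3 rats of the same strain and sex had been given corn oil for the same time. All rats had been bought at an age of 5 weeks and ate the same basal diet, and the renal cortex of each animal was measured on 1 single-colour Agilent array. The route of dosing is not given in the labels.

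Phenobarbital-type induction runs through the nuclear receptor CAR (gene Nr1i3), which pairs with a retinoid X receptor, and overlaps with the action of the pregnane X receptor PXR (Nr1i2). In rat liver, CAR acts on an enhancer far upstream of the Cyp2b genes, and the enzymes made from Cyp2b1 and Cyp2b2 oxidise drugs and steroids. These P450s are genes of liver more than of kidney, where the main P450s are those of fatty acid oxidation. Abcb1b encodes a P-glycoprotein, a membrane pump that exports drugs from cells.

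The promoters of the 3 Cyp2b members are shown because these genes shared one pattern over the arrays and because near-identical paralogs may share signal. They lie on chromosome 1 of GRCr8 and are RefSeq's, each holding 300 bases, 250 before and 50 after the annotated start. Capitals mark 3 motifs searched on both strands, which do not overlap here. They are TTGCNNAA, a C/EBP-type site, GGGCGG, a GC box, and CATAAAAG, a TATA-like stretch of these 3 promoters.
Cyp2b1 (chr1:90645869-90646168, plus strand): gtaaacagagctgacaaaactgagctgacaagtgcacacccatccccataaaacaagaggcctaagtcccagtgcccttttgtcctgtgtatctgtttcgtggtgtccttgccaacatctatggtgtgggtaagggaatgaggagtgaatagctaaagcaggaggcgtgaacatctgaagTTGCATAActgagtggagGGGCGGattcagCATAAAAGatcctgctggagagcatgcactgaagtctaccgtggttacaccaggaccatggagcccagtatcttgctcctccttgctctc
Cyp2b2 (chr1:90722031-90722330, plus strand): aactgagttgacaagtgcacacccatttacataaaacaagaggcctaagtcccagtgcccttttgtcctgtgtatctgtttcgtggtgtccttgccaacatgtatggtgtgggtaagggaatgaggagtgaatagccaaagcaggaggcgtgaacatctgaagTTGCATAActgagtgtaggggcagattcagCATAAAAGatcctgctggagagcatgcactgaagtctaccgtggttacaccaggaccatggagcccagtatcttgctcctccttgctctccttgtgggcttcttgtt
Cyp2b21 (chr1:91042703-91043002, minus strand): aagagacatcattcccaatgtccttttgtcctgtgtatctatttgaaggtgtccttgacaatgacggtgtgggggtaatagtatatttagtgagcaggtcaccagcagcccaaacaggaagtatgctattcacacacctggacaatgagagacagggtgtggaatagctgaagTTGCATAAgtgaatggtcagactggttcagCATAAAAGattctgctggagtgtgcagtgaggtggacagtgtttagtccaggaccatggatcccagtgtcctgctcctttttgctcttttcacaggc

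The Cyp2b1 and Cyp2b2 promoters matched at 275 of 283 aligned columns (97.2%), and Cyp2b21 matched each of them at 63.6%. All 3 hold TTGCATAA, while only Cyp2b1 among them holds the GC box. All 3 hold CATAAAAG too, but it was searched as a stretch of these same promoters, so its presence in them is no result. The related genes Cyp2b12, Cyp2b15 and Cyp2b3 hold TTGCNNAA too, as TTGCATAA in Cyp2b3, but no CATAAAAG. Cyp2b12 also holds the GC box. Cyp2b21 matched Cyp2b15 at 74.4% and Cyp2b3 at 72.6%, more than it matched Cyp2b1 and Cyp2b2. Of all 33469 RefSeq promoters of this length, 10.6% hold TTGCNNAA, 33.1% hold GGGCGG and 1.06% hold CATAAAAG. The nuclear receptor half-site AGGTCA, which 16.2% of promoters hold, was found once in Cyp2b21 and in neither Cyp2b1 nor Cyp2b2. It also stood in Cyp2b12 and Cyp2b15. The half-site AGTTCA, which 14.5% hold, was found in none of the 3 members. These matches describe the letters of this window, and the phenobarbital enhancer lies outside it.

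Between 64.8% and 72.1% of the 61657 probes were well above background on each array, and 0 probes were saturated. The 6 arrays lay on 3 slides. The vehicle arrays shared 1 slide, phenolphthalein replicates 2 and 3 shared another, and phenolphthalein replicate 1 lay alone on the remaining one. No slide held both groups, so an effect of the vehicle slide and one of the treatment cannot be told apart. The deposited value table gives each array to another replicate number within its group, so replicate numbers below are those of the scanner data and only the groups are certain. Entering slides as random blocks gave a log2 difference of 1.80 for Cyp2b2, 2.58 for Cyp2c6v1 and 0.98 for Abcb1b. As each slide lies within 1 group, that fit cannot separate the slide from the treatment and is no check on it. Over all 34417 tested items, 0% were called higher and 0% lower by limma at an adjusted p of 0.05. At an unadjusted p of 0.05, limma called 1346 items higher (3.91%) and 1708 lower (4.96%). The tissue carried the defining genes of renal cortex, with the proximal tubule enzyme Miox between 9.03 and 9.14 (log2 level over the 75th percentile of the array) and the thick ascending limb protein gene Umod between 8.68 and 8.86. In whole tissue, fewer cells of a type and less RNA per cell cannot be told apart.

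Cyp2b2 stood higher on every phenolphthalein array than on any vehicle array by all 5 of its probes. Levels here and below are log2 of the spot intensity over the 75th percentile of the array, so a level of 0 is that percentile. The brightest probe (A_44_P311326), well above background on all 6 arrays, read -0.84, 0.34 and -1.80 in phenolphthalein replicates 1, 2 and 3, against -2.58, -2.52 and -2.63 in the vehicle replicates. The vehicle animals thus lay within 0.11 of each other, while the phenolphthalein animals spanned 2.14. The means were -0.77 ± 1.07 with phenolphthalein and -2.58 ± 0.05 with vehicle (SD, n = 3 each), a log2 difference of 1.81 or 3.50-fold. The probe with the largest difference (A_44_P311323) read -2.53, -0.80 and -3.92 with phenolphthalein against -5.65, -5.96 and -5.97 with vehicle, a log2 difference of 3.45. It was well above background on 3 phenolphthalein arrays and on 1 vehicle array. The smallest difference was 1.13 (A_44_P311322), where the lowest phenolphthalein array lay only 0.08 above the highest vehicle array. Taking the median level of the 5 probes on each array, before the groups were compared, gave 3.25. That value leans on probes that were not well above background on every vehicle array. A size for the Cyp2b2 difference therefore depends on the probe, and the sign did not.

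**Figure D1:**
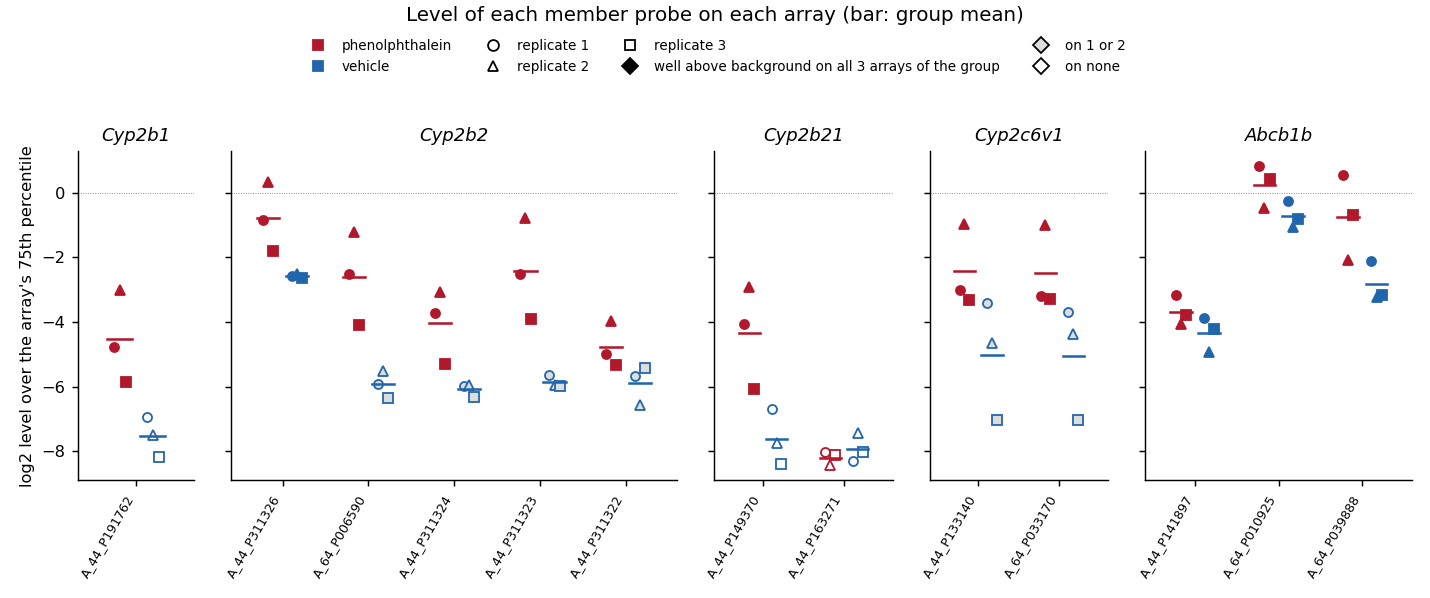
Level of each of the 13 probes of Cyp2b1, Cyp2b2, Cyp2b21, Cyp2c6v1 and Abcb1b on each array, as log2 over the array's 75th percentile, with phenolphthalein (red) left of vehicle (blue), shapes for replicates and bars for group means. Fill shows on how many arrays of the group the probe was well above background; the brightest Cyp2b2 probe spans 2.14 with phenolphthalein and 0.11 with vehicle.

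Cyp2b1, the best known phenobarbital-inducible P450 of rat liver, was well above background in treated animals only. Its single probe (A_44_P191762) was well above background on 3 of 3 phenolphthalein arrays, at -4.77, -3.0 and -5.86, and on 0 of 3 vehicle arrays, at -6.93, -7.50 and -8.17. The means were -4.54 ± 1.44 with phenolphthalein and -7.53 ± 0.62 with vehicle (SD, n = 3 each). Since the vehicle values give only a bound, Cyp2b1 was at least 2.84-fold higher with phenolphthalein by the deposited intensities. For the bound, each vehicle value was raised to the lowest level well above background on its array where it lay under that level. A probe above that level need not be well above background, so the bound is approximate. With another background correction (normexp), the measured log2 difference was 0.80, lower than this bound. Without phenolphthalein replicate 2 the bound was 1.66-fold, and without phenolphthalein replicate 3 it was 4.48-fold.

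Cyp2b21, another member of the Cyp2b subfamily, followed the same course by the 1 of its 2 probes that gave signal. That probe (A_44_P149370) read -4.05, -2.91 and -6.09 with phenolphthalein, all well above background, against -6.69, -7.74 and -8.40 with vehicle, none well above background. Its means were -4.35 ± 1.61 with phenolphthalein and -7.61 ± 0.86 with vehicle (SD, n = 3 each). By the same approximate bound, it was at least 3.25-fold higher with phenolphthalein. With normexp, the measured log2 difference was 0.99, lower than this bound. Leaving out phenolphthalein replicate 2 gave a bound of 1.97-fold, and leaving out phenolphthalein replicate 3 gave 5.93-fold. The other probe (A_44_P163271) was not well above background on any of the 6 arrays, with means of -8.20 with phenolphthalein and -7.93 with vehicle. Probes for Cyp2b1, Cyp2b2 and Cyp2b21 may take up each other's transcripts, so how much of each value belongs to each gene is uncertain. The array files used here hold no probe sequences.

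Treated animals differed from each other in one order for the whole Cyp2b group. All 7 Cyp2b probes well above background on at least 3 arrays were highest in phenolphthalein replicate 2, then replicate 1, then replicate 3, an order that 11.4% of all such probes showed. The gap between the highest and the lowest treated animal was 2.86 for Cyp2b1 and 3.17 for Cyp2b21 (log2). Members of this group share sequence, so the 7 probes are not 7 independent readings.

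Cyp2c6v1, a P450 of the Cyp2c subfamily that rat liver makes without induction and in larger amounts with phenobarbital, was higher with phenolphthalein by both of its probes but hardly parted the groups. The probe with the higher mean (A_44_P133140) read -3.01, -0.97 and -3.31 with phenolphthalein, against -3.40, -4.66 and -7.02 with vehicle. Vehicle replicate 1 thus lay 0.09 below the lowest treated animal, and vehicle replicate 3, where the probe was not well above background, lay far below the rest. The means were -2.43 ± 1.27 with phenolphthalein and -5.03 ± 1.84 with vehicle (SD, n = 3 each), a log2 difference of 2.60. Without vehicle replicate 3 it was 1.60, and without vehicle replicate 1 it was 3.22. Here it was the vehicle animals that spread most, over 3.62, whereas those of the brightest Cyp2b2 probe lay within 0.11.

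Abcb1b was higher on average with phenolphthalein by all 3 of its probes, each well above background on all 6 arrays. The brightest probe (A_64_P010925) read 0.81, -0.48 and 0.41 with phenolphthalein, against -0.27, -1.07 and -0.83 with vehicle, so that phenolphthalein replicate 2 lay within the vehicle range. The means were 0.24 ± 0.66 with phenolphthalein and -0.72 ± 0.41 with vehicle (SD, n = 3 each), a log2 difference of 0.97 or 1.95-fold. A second probe (A_64_P039888) read 0.55, -2.08 and -0.69 with phenolphthalein against -2.12, -3.24 and -3.16 with vehicle, a log2 difference of 2.10 with a gap of 0.04 between the groups. The dimmest probe (A_44_P141897) differed by 0.67, and its groups overlapped.

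The order of the treated animals for Abcb1b was not that of the P450s. All 3 probes were highest in phenolphthalein replicate 1, then replicate 3, then replicate 2, an order found in 18.7% of all probes well above background on at least 3 arrays. The animal with the highest Cyp2b levels thus had the lowest treated Abcb1b level. Phenolphthalein replicate 1 lay alone on its slide, and whether the slide had a part in its Abcb1b level was not tested.

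Over the 5 genes together, 12 of the 13 probes were well above background on at least 3 arrays. Of these 12, all had a higher mean with phenolphthalein and 10 had groups that did not overlap, where 6.64% of all 43473 probes past that filter had non-overlapping groups with phenolphthalein higher. By the brightest probe of each gene, 4 of the 5 genes had non-overlapping groups, where 6.59% of all items did so with phenolphthalein higher and 9.11% with phenolphthalein lower. The log2 difference was at least 1 for Cyp2b2 (1.81) and Cyp2c6v1 (2.60) and under 1 for Abcb1b (0.97), where 0.558% of all items had a difference of at least 1, and Cyp2b1 and Cyp2b21 have only the bounds above. Because the genes were picked with this contrast known, these counts describe them and are no evidence about them. The filter also favours higher probes, since those of Cyp2b1 and Cyp2b21 passed only through the phenolphthalein arrays. The probe it left out (A_44_P163271 of Cyp2b21) differed by -0.27. The 2 overlapping probes were both of Abcb1b. Leaving out any 1 of the 6 arrays kept all 12 means higher with phenolphthalein. The groups of 10 of the 12 did not overlap without phenolphthalein replicate 1 or 3 or vehicle replicate 2 or 3, with 2 Abcb1b probes overlapping each time, and those of 12 of 12 did not without phenolphthalein replicate 2 or vehicle replicate 1. With 1 array fewer, between 10% and 13.3% of all probes had such groups.

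**Figure D2:**
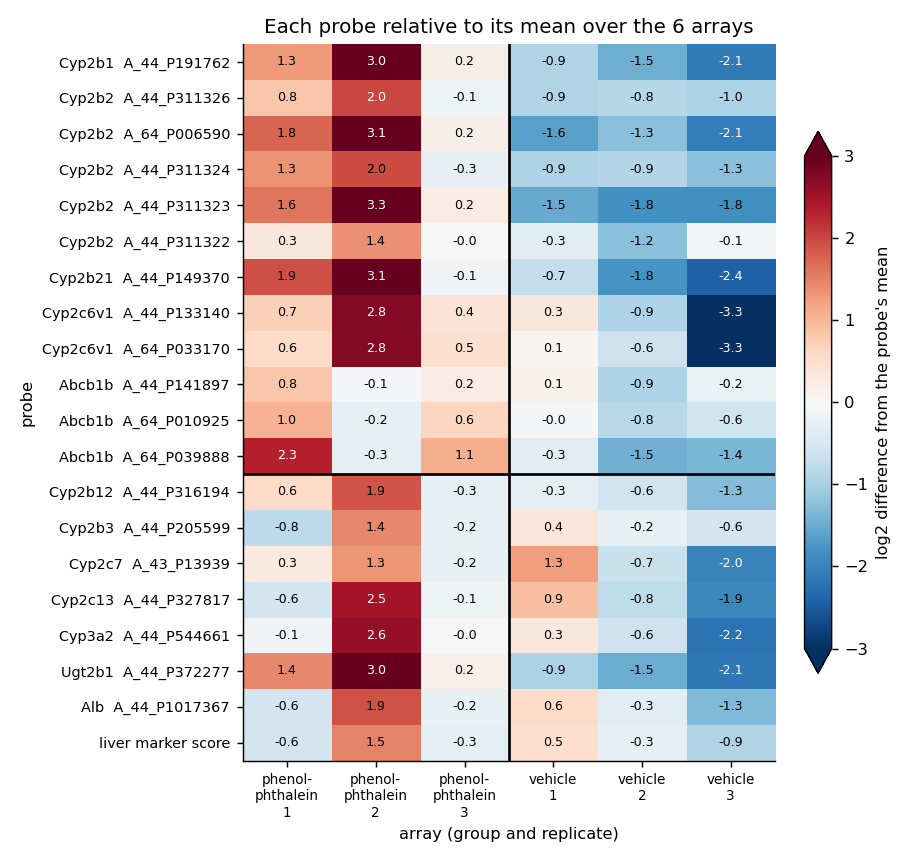
Each row is a probe, or the liver marker score, as the log2 difference from its own mean over the 6 arrays (columns, phenolphthalein left of vehicle). Members stand above the line; the rows of Cyp2b1, Cyp2b2 and Cyp2b21 are below 0 on all vehicle arrays, while Cyp2c6v1, Cyp2c7, Cyp2c13, Cyp3a2 and Alb are lowest in vehicle replicate 3 and highest in phenolphthalein replicate 2, and Abcb1b is highest in phenolphthalein replicate 1.

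Genes of liver also differed between the arrays. Alb, which encodes serum albumin, read 0.67, 3.16 and 1.04 in phenolphthalein replicates 1 to 3, against 1.82, 0.91 and -0.08 in the vehicle replicates. Of 41 listed liver markers, 35 were tested, and 9 of these exceeded the array's 75th percentile in all 6 animals. Over the remaining 26, the mean of the centred levels was -0.55, 1.48 and -0.29 with phenolphthalein, against 0.53, -0.25 and -0.91 with vehicle, a difference of 0.42 (two-sided p = 0.7 by exact permutation of the 6 arrays, a test that cannot go below 0.1). Of the 26, 21 were highest in phenolphthalein replicate 2, and 20 ran from vehicle replicate 1 over 2 to 3. Their summed linear level lay between 10.1 and 39.4 times the 75th percentile with phenolphthalein, against 7.49 to 22.3 times with vehicle. The hepatocyte genes Cps1, Cyp7a1 and Tat were not well above background on any array.

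The 7 Cyp2b probes that passed the filter and both Cyp2c6v1 probes were, like most of these liver markers, highest in phenolphthalein replicate 2. In the vehicle animals, both Cyp2c6v1 probes ran from replicate 1 over 2 to 3, as 20 of the 26 liver markers did. So did Cyp2b1, Cyp2b21 and 1 Cyp2b2 probe (A_44_P311323), though mostly at levels not well above background, while the other Cyp2b2 probes had other orders. The brightest Cyp2b2 probe read -0.84 and -1.80 in phenolphthalein replicates 1 and 3, at liver scores of -0.55 and -0.29, and -2.58 in vehicle replicate 1, at a score of 0.53. With the score of the 26 markers as a covariate, the log2 difference was 1.56 for Cyp2b2, 1.95 for Cyp2c6v1 and 1.09 for Abcb1b. For Cyp2b1 and Cyp2b21, whose vehicle values are not well above background, no such value is given. Leaving out phenolphthalein replicate 2, where the liver score was highest, gave 1.25 for Cyp2b2, 1.87 for Cyp2c6v1 and 1.33 for Abcb1b with no covariate. The part of liver transcripts in the levels of the P450 members was not tested. Markers of adrenal cortex differed by 0.12 in score (two-sided exact permutation p = 0.5), and Cyp11b1, Cyp11b2, Star, Mc2r and Nr5a1 were not well above background on any array. The mean score of immune cell markers, with 14 tested of 14 listed, was lower with phenolphthalein, though not every marker was. It was -0.31, -0.11 and -0.24 against 0.08, 0.45 and 0.12 with vehicle (two-sided exact permutation p = 0.1, the smallest possible). The part of immune cells in the member levels was not tested.

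Close relatives of the members were measured on the same arrays. Besides the members, 9 Cyp2b and Cyp2c genes were on the array with 18 probes, and 7 of these genes were tested. Cyp2b12, a Cyp2b gene known from sebaceous glands of rat skin, read -4.69, -3.38 and -5.53 with phenolphthalein, against -5.54, -5.85 and -6.55 with vehicle, by 1 probe (A_44_P316194), with a gap of 0.01 between the groups and in the same order of treated animals as the Cyp2b members. The Cyp2b15 probes well above background on at least 3 arrays differed by -0.12 and 0.05, and those of Cyp2b3, a Cyp2b gene of rat liver, by 0.28 and 0.49, with overlapping groups. The higher levels seen for Cyp2b1, Cyp2b2 and Cyp2b21 were thus not shared by each Cyp2b probe.

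Among the Cyp2c relatives, Cyp2c23, the epoxygenase of rat kidney that acts on arachidonic acid, was at 8.21 ± 0.06 with phenolphthalein and 8.27 ± 0.03 with vehicle (SD, n = 3 each). The liver P450 Cyp2c7 read -3.67, -2.64 and -4.19 with phenolphthalein, against -2.71, -4.65 and -5.98 with vehicle. Cyp2c13, a P450 of male rat liver, read -4.65, -1.59 and -4.21 with phenolphthalein, against -3.17, -4.84 and -6.00 with vehicle. The groups of both genes overlapped, and vehicle replicate 1 was again the highest vehicle array. Cyp2c11, the main male-specific P450 of rat liver, read -0.81, 0.37 and -0.34 with phenolphthalein, against 1.91, 1.85 and -3.26 with vehicle. Both Cyp2c13 and Cyp2c11 are themselves among the listed liver markers, so their levels are not readings apart from that list. The neighbours of Abcb1b on chromosome 4 differed little, with Abcb1a, the other drug-exporting P-glycoprotein gene, at a log2 difference of 0.21 and the phospholipid exporter gene Abcb4 at 0.09, both with overlapping groups.

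**Figure D3:**
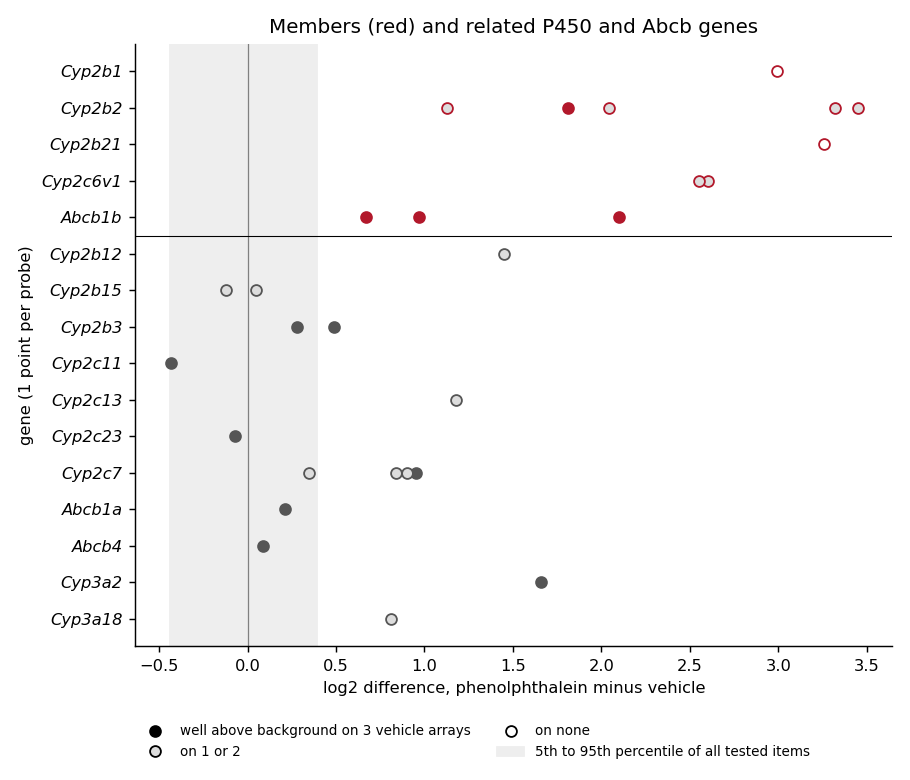
Log2 difference, phenolphthalein minus vehicle, of each probe well above background on at least 3 arrays, for the 5 members (red) and for related Cyp2b, Cyp2c, Abcb and Cyp3a genes (grey). Fill shows on how many vehicle arrays the probe was well above background, and the band spans -0.44 to 0.39, the 5th to 95th percentile of all tested items.

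The receptors of the response were measured as well. Nr1i3, which encodes CAR, had 4 probes, of which 1 (A_64_P109497) was well above background on all 6 arrays. It read -4.73, -4.18 and -4.25 with phenolphthalein, against -4.96, -5.08 and -5.18 with vehicle, so that the groups did not overlap. Its log2 difference of 0.69 (SE 0.21) did not pass in limma (adjusted p = 0.493). None of the other Nr1i3 probes was well above background on more than 1 array. Nr1i2, which encodes PXR, read 2.20, 2.49 and 2.40 with phenolphthalein, against 2.21, 2.21 and 2.35 with vehicle, a log2 difference of 0.11 (SE 0.09, limma adjusted p = 0.752). Of 18 tested receptors and cofactors, 13 were higher on average and 5 lower, with a median of 0.09 where all items had a median of -0.02. None passed in limma. At an unadjusted p under 0.05 there were 1 higher (Nr1i3) and 1 lower, beside 3.91% and 4.96% of all items. The lower one was Rxrg, a retinoid X receptor gene (log2 difference -0.78, SE 0.20, limma adjusted p = 0.458).

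Other genes known to respond to CAR or PXR lay on both sides of 0. Of 44 listed, 32 were tested, 17 with a higher and 15 with a lower mean, at a median of 0.04. None passed in limma. At an unadjusted p under 0.05 there were 2 higher and 0 lower, beside 3.91% and 4.96% of all items. The 2 were Ugt2b1, a glucuronosyltransferase gene, and Ces2c, a carboxylesterase gene (log2 difference 0.23, SE 0.09, limma adjusted p = 0.555). Ugt2b1 was well above background on 3 of 3 phenolphthalein arrays, at -4.87, -3.32 and -6.15, and on 0 of 3 vehicle arrays, at -7.25, -7.80 and -8.45. By the approximate bound used for Cyp2b1, Ugt2b1 was at least 2.41-fold higher. The bound was not tested, and the limma adjusted p of 0.44 belongs to the measured log2 difference of 3.05 (SE 0.72). Another glucuronosyltransferase gene, Ugt2b7, differed by 0.98 (SE 0.43, limma adjusted p = 0.574) with overlapping groups. Cyp3a2, a liver P450 that PXR raises, read -2.94, -0.23 and -2.85 with phenolphthalein, against -2.49, -3.46 and -5.05 with vehicle, again the order seen in the liver markers.

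P450s take their electrons from the reductase encoded by Por and their haem from a pathway that starts with Alas1. Por differed by 0.28 (SE 0.12, limma adjusted p = 0.575) and Alas1 by 0.30 (SE 0.14, limma adjusted p = 0.592), and the groups of both overlapped. Cpox, a later enzyme of haem synthesis, read 0.17, -0.16 and -0.34 with phenolphthalein, against -0.77, -0.83 and -0.84 with vehicle, a log2 difference of 0.70 (SE 0.13, limma adjusted p = 0.433). The haem-degrading enzyme gene Hmox1 differed by -0.18 (SE 0.08, limma adjusted p = 0.6). Of the 18 genes of electron supply and haem synthesis, 10 were higher and 8 lower on average, with 0 passing in limma and 1, Cpox, at an unadjusted p under 0.05. The median was 0.02, and 3.91% of all items were higher at that unadjusted p.

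Exporter genes near Abcb1b in function were higher more often than lower, by small amounts. Of 11 tested, 9 had a higher and 2 a lower mean, with a median of 0.09, where 45.8% of all items were above 0. None passed in limma, and 3 were higher at an unadjusted p under 0.05, where 3.91% of all items were. Abcc1, a multidrug resistance protein gene, read 1.05, 1.00 and 1.04 with phenolphthalein, against 0.80, 0.69 and 0.64 with vehicle (log2 difference 0.32, SE 0.07, limma adjusted p = 0.434). Abcg2, which encodes the breast cancer resistance protein, differed by 0.31 (SE 0.10, limma adjusted p = 0.516), and Abca1, a cholesterol exporter gene, by 0.33 (SE 0.13, limma adjusted p = 0.544). None of the 3 had overlapping groups, where 6.59% of all items had such groups with phenolphthalein higher. These 3 were named for their small p, so the lack of overlap follows in part from that choice.

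**Figure D4:**
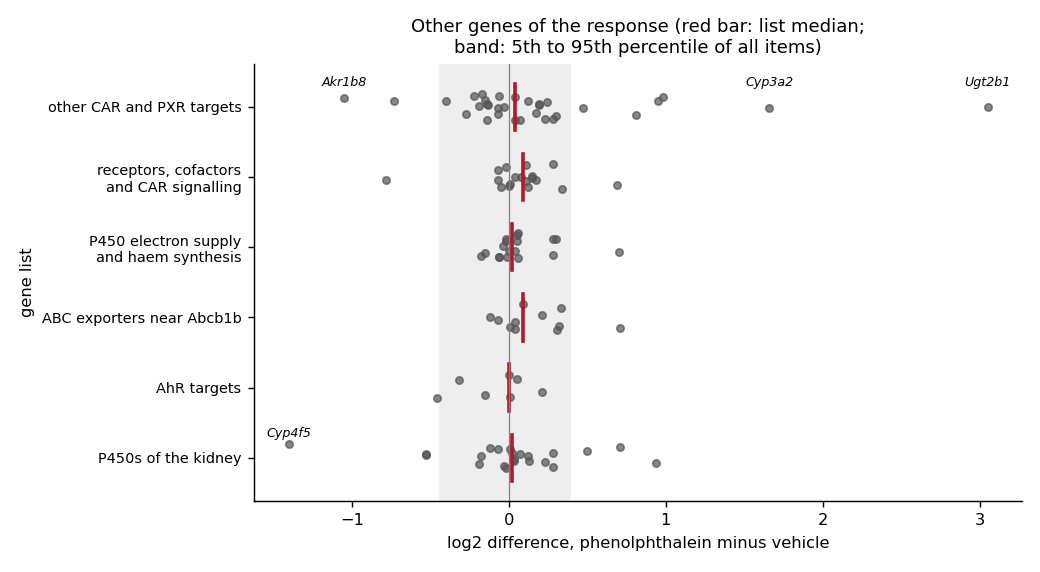
Log2 difference, phenolphthalein minus vehicle, of each tested gene in 6 lists of response genes other than the members, with list medians as red bars and the band from -0.44 to 0.39 that spans the 5th to 95th percentile of all items. Medians lie between 0.00 and 0.09, and Ugt2b1 stands apart at 3.05, a value whose vehicle side is not well above background.

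Targets of the aryl hydrocarbon receptor AhR, which drives another class of P450 induction, had a median of 0.00 over 7 tested of 11 listed. The listed P450 genes Cyp1a1, Cyp1a2 and Cyp1b1 were not among the 7, so this median holds no P450 of that class. None of the 7 passed in limma, and 1, the AhR repressor gene Ahrr, was lower at an unadjusted p under 0.05 (log2 difference -0.46, SE 0.15, limma adjusted p = 0.512). P450 genes of the kidney had a median of 0.02 over 22 tested genes, of which 13 were higher and 9 lower on average. None passed in limma, and at an unadjusted p under 0.05 there were 1 higher, Cyp4b1 (0.28, SE 0.10), and 2 lower, the fatty acid hydroxylase gene Cyp4a2 (-0.12, SE 0.05) and Cyp2j4 (-0.53, SE 0.21). The limma adjusted p was 0.53 for Cyp4b1, 0.531 for Cyp4a2 and 0.55 for Cyp2j4.

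The genes whose course over the 6 arrays was most like that of a member were found by the root mean square difference of log2 levels, each gene centred on its own mean. For Cyp2b1 the nearest was Ugt2b1, at 0.08, where Cyp2b1 itself varied by 1.75 about its mean, and Cyp2b21 (0.35) and Cyp2b2 (0.72) came next. For Cyp2b21 they were Ugt2b1 (0.30), Cyp2b1 (0.35) and Cyp2c6v1 (0.85). For Cyp2b2 they were Cyp2b12 (0.34), Actn3 (0.47) and Myorg (0.57). None of Cyp2b1, Cyp2b21 and Ugt2b1 stood well above background in a vehicle animal, so their distances rest in part on background signal.

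Cyp2c6v1 was most like Cyp3a2 (0.60), then Cyp2b1 (0.77) and Nxph1 (0.78). Abcb1b was most like Flrt3 (0.23), Adgrg5 (0.24) and Rcor2 (0.25), and no P450 was among the 3. All 6 arrays enter each of these distances, including the contrast by which the members were picked.

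**Figure D5:**
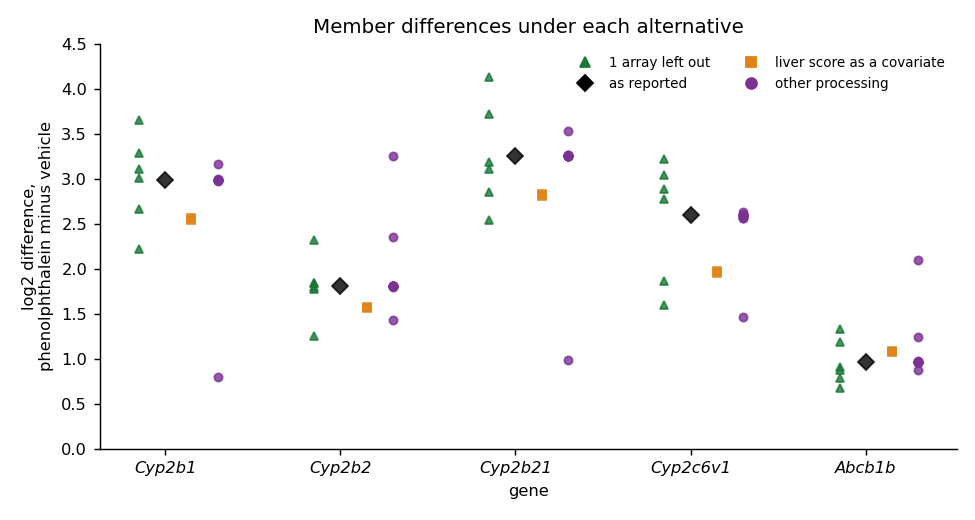
Log2 difference, phenolphthalein minus vehicle, of each member as reported (diamond), with 1 array left out (triangles), with a liver score as a covariate (squares) and under other processing (circles). The squares are the score of all 35 tested liver markers and that of 26 of them. Every value is above 0. Those of Cyp2b1 and Cyp2b21 are measured differences whose vehicle side is not well above background, and the lowest circle of each is normexp background correction, at 0.80 and 0.99.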

How the data were processed

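Per the file headers, Agilent Feature Extraction 10.7.1.1 made the deposited intensity of each spot, with local background subtracted and spatial trends removed. The submitters' processing notes name version 10.7. The deposited value table holds a ratio of that intensity to the 75th percentile of an array, as a comparison with the scanned intensity showed. Each table column matched another replicate of the same group, so which animal is which replicate is uncertain within a group, and 0 columns were left out. Probes were named through RefSeq accessions with the GRCr8 gene table (27460 of 61657 probes), while the array design uses rn4.

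The members and lists were chosen with earlier results of these data known. From the deposited intensity, log2 levels were taken relative to the 75th percentile of each array, outlier spots were set to missing, and a probe was kept where 3 or more of the 6 arrays had it well above background. The brightest probe stood for a gene. Phenolphthalein was tested against vehicle with limma 3.58.1 under R 4.3.3 (trend, two-sided), with Benjamini-Hochberg adjustment over 34417 items, and the fit was tested on simulated data. Genes named besides the members were their Cyp2b, Cyp2c and Abcb relatives, the receptors, up to 4 genes per list by smallest p, the 3 genes most like each member, and leading markers. The labels give 3 animals per treatment and do not say that any were pooled. The number of arrays limits the precision. Alternatives covered background correction, normalization, filters, probes, trend, slide, replicate number and arrays left out.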

Additional observations from a re-analysis of the deposited data

How the results depend on the processing

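The count of items called by limma was 0 higher and 0 lower under each alternative that kept all 6 arrays, the replicate block among them (0 and 0), and leaving out 1 array gave 0 to 1 higher (1 without phenolphthalein replicate 2 and 1 without replicate 3) and 0 to 1 lower (1 without phenolphthalein replicate 2 and 1 without vehicle replicate 1). Same-numbered arrays did not deviate together (correlations of -0.00606, -0.015 and 0.025), so the numbers were not taken as pairs, and with the replicate block Cyp2b2 stayed at 1.81. Of 97 member differences under alternatives, 93 stayed within 1 SD between replicates, 4 moved further and 0 changed sign. Some alternatives, such as dropping the trend, leave a difference of means as it is, so the 93 are no measure of stability. The 4 were Cyp2b1 (0.80) and Cyp2b21 (0.99) with normexp, whose offset of 50 is added to dim signals (measured differences, with vehicle not well above background), and Cyp2b2 (3.25) and Abcb1b (2.10) with the median over probes, which shows that the probe sets their size. The normexp differences of Cyp2b1 and Cyp2b21 lay under their bounds. Normexp also gave 1.43 for Cyp2b2 and 1.46 for Cyp2c6v1, against 1.81 and 2.60 as reported, which the large SDs count as within 1 SD. Normexp used the median spot signal, since the files hold no mean. Leaving out 1 array gave 1.25 to 2.32 for Cyp2b2, 1.60 to 3.22 for Cyp2c6v1 and 0.68 to 1.33 for Abcb1b, and leaving out 1 phenolphthalein array gave bounds of 1.66- to 4.48-fold for Cyp2b1 and 1.97- to 5.93-fold for Cyp2b21. Cyp2b1, Cyp2b21 and Cyp2c6v1 had no value when a probe had to be well above background on all 6 arrays. The liver covariates were chosen after seeing the data. With all 35 tested liver markers as the covariate, the differences were 1.58 for Cyp2b2 and 1.98 for Cyp2c6v1. Of 120 list medians, 118 stayed within 1 SD; the AhR median moved to -0.20 and -0.23 with the mean and median over probes. Dim vehicle signals limit Cyp2b1, Cyp2b21 and Cyp2c6v1.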
